A study of Mus musculus with 8 samples.

Results

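Acap1, Fancc, Gm30635 and Gm671 are 4 of the 49997 genes in a table of RNA-seq counts from EO771, a breast cancer cell line of the mouse. They were chosen by their counts in the same libraries, as genes higher with ADAR1 p150 overexpression and not higher with 12-HETE. Their levels in these 2 comparisons are therefore given as a description, with no test. All 4 reached the minimum for testing, a mean of 10 counts across the 8 libraries, as did 6901 genes. The libraries formed 4 groups with 2 replicates each. In one experiment, EO771 cells were kept for 48 h with 12-HETE, a lipid made by 12-lipoxygenase, at 100 nM, or with its vehicle, saline that contained 2% DMSO. In the other, EO771 cells were transduced with an empty vector or with a vector for ADAR1 p150, the interferon-inducible long isoform of the adenosine-to-inosine RNA editing enzyme that the gene Adar encodes. Whether the transduced cells were a clone or a pool is not given in the sources used here. The study describes the replicates of this design, where it gives RNA editing, as independent experiments, and the labels only number them.

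Acap1 encodes a GTPase-activating protein for the small GTPase Arf6, which switches off Arf6 on endosomes and takes part in the return of receptors and integrins to the cell surface. It is best known from lymphocytes. Fancc encodes a subunit of the Fanconi anaemia core complex, a ubiquitin ligase that acts on the FANCD2 and FANCI proteins at DNA interstrand crosslinks so that the crosslink can be repaired. Gm30635 and Gm671 are predicted genes that RefSeq lists as long non-coding RNAs, with no function given.

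Counts of the 4 genes rest on library totals between 1101767 and 1537037, with the treated libraries deeper than their controls, and normalized CPM (counts per 1000000 after TMM scaling) corrects for this. Adar, the overexpressed gene, had vector counts of 2 and 8 and ADAR1 p150 counts of 181 and 140, against 5 and 5 with vehicle and 7 and 6 with 12-HETE, so the labels of the overexpression libraries hold. Of 6 epithelial markers, Krt8, Krt18, Krt19 and Krt7 passed the minimum, while Epcam had at most 4 counts in a library and Cdh1 had 0 in all 8. The summed level of these 6 was from 178 to 210 normalized CPM with vector and from 171 to 243 with ADAR1 p150. Within this sum, Krt18 was lower with ADAR1 p150 than with vector (log2 fold change -0.88, adjusted p = 0.00198 by edgeR). Krt8 (0.59, adjusted p = 0.0314) and Krt19 (0.60, adjusted p = 0.0465) were higher, and Krt7 had 0.36 (adjusted p = 0.355). Over the 8 libraries, the summed level of 4 myeloid markers was from 13.1 to 27.3, of 5 fibroblast markers from 8.85 to 40.2 and of 4 endothelial markers from 0.742 to 8.79. How the counting treated strand is not given in the sources used here. There were 379 pairs in which exons of a coding gene and of a non-coding gene shared at least 200 bases on opposite strands, and the non-coding gene had the higher mean count, not corrected for length, in 81.5%. Whether counts under a gene's name came from RNA of the other strand was not tested, for the members or for the genes around them. In a bulk sample, fewer cells that express a gene and less RNA per cell cannot be told apart.

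All 4 genes lie on the minus strand, on 4 chromosomes of GRCm38 (RefSeq GRCm38.p6). Acap1 spans chr11:69881566-69895568 and Fancc spans chr13:63301334-63497292. Gm30635 spans chr8:45654563-45678961, inside the body of the plus-strand gene Sorbs2, and holds 541 bases of Sorbs2 exons in the GENCODE M21 annotation. Gm671 spans chr15:101382578-101412192 and overlaps the plus-strand non-coding gene Gm35853 over 23280 bases. Its start is 0.211 kb from that of Krt7, a keratin gene on the plus strand. In GENCODE M21, Krt7 exons cover 754 bases of Gm671, and Gm671 starts at 101412311. By that annotation the window printed below for Gm671 lies partly inside it.

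The bases before the start of 3 of the 4 genes are shown because the genes were higher together and lie on different chromosomes. The sequences are from RefSeq GRCm38.p6, on the minus strand, and the table used held no such window for Acap1. Capitals mark matches on either strand to 8 short motifs. These were the interferon-stimulated response element (ISRE), the gamma-activated site (TTCNNNGAA), the AP-1 site (TGANTCA), the CRE (TGACGTCA), the Sp1 site (GGGCGG), the E-box (CACGTG), the CCAAT box (CCAAT) and the TATA box (TATAAA). For Gm30635 the 250 bases are chr8:45678962-45679211, for Fancc the 250 bases before an annotated start inside the gene are chr13:63431746-63431995, and for Gm671 the 209 bases towards Krt7 are chr15:101412193-101412401.
Gm30635: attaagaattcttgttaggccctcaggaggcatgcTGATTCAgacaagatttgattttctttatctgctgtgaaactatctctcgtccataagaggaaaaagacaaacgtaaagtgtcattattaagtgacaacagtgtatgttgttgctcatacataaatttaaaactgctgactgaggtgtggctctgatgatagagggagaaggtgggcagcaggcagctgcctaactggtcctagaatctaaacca
Fancc: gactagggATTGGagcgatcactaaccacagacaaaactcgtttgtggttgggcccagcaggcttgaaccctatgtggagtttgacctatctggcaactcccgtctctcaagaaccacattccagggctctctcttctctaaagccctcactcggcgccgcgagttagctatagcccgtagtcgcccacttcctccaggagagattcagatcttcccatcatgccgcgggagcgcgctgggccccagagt
Gm671: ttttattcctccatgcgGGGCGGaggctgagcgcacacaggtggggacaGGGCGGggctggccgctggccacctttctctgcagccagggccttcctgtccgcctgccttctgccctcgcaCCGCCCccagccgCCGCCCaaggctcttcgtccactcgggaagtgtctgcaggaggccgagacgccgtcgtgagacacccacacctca

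The 3 windows had no motif in common. The window of Gm30635 held 1 AP-1 site, which 6.75% of the 32851 windows of 250 bases before a gene start in the table also held. That of Fancc held 1 CCAAT box (33.8% of all windows), and that of Gm671 held 4 Sp1 sites (at least 1 in 32.7%). Neither the interferon-stimulated response element nor the gamma-activated site was found in these 3 windows, against 2.98% and 7.02% of all windows. Gm671 has 2 further windows in the table, at starts inside the gene, and 1 of them, chr15:101398690-101398939, held 1 match to the interferon-stimulated response element. A match describes letters only and does not show a bound factor.

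Acap1 had the largest log2 change of the 4 members. Its counts were 38 and 37 (vehicle), 21 and 25 (12-HETE), 24 and 43 (vector) and 561 and 572 (ADAR1 p150). Both ADAR1 p150 libraries stood far above the other 6, and the lower of them was 10.5 times the highest of the others in normalized CPM. In normalized CPM the level was 28.8 ± 10.7 with vector and 401 ± 25.9 with ADAR1 p150 (SD, n = 2 libraries each), a fitted log2 fold change (log2 change below) of 3.79 with a standard error (SE) of 0.17. With 12-HETE it was 16.5 ± 2.86 against 30.6 ± 1.26 with vehicle, a log2 change of -0.89 (SE 0.27), and the ranges of these groups did not overlap. Acap1 ranked 9 among the 6901 genes by its log2 change with ADAR1 p150. The defining lymphocyte marker Cd3e had 0 counts in all 8 libraries and Ptprc had at most 1. Over the 7 lymphocyte markers, the summed level was from 15.2 to 19.5 normalized CPM with vector and from 10.3 to 11.6 with ADAR1 p150.

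Fancc had vehicle counts of 125 and 116, 12-HETE counts of 84 and 96, vector counts of 122 and 144, and ADAR1 p150 counts of 447 and 422. The level with ADAR1 p150 was 307 ± 3.11 normalized CPM, against 115 ± 9.91 with vector (SD, n = 2 libraries each). The log2 change was 1.42 (SE 0.13). As for Acap1, the 12-HETE libraries were the lowest of the 8, at 64.7 ± 9.32 normalized CPM against 98.5 ± 7.39 with vehicle, a log2 change of -0.61 (SE 0.16).

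Gm30635 had vehicle counts of 175 and 128, 12-HETE counts of 144 and 159, vector counts of 111 and 145, and ADAR1 p150 counts of 836 and 882. The ADAR1 p150 libraries stood apart from the other 6, which lay close together. In normalized CPM the level was 111 ± 17.4 with vector and 608 ± 53.9 with ADAR1 p150 (SD, n = 2 libraries each), a log2 change of 2.46 (SE 0.14). With 12-HETE the level was 109 ± 13.1 normalized CPM, against 124 ± 29.9 with vehicle, a log2 change of -0.19 (SE 0.15). The ranges of these groups overlapped.

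Gm671 had the smallest log2 change of the 4. It had vehicle counts of 234 and 251, 12-HETE counts of 131 and 159, vector counts of 220 and 237, and ADAR1 p150 counts of 485 and 451. The level went from 198 ± 4.28 normalized CPM with vector to 331 ± 0.184 with ADAR1 p150 (SD, n = 2 libraries each), a 1.67-fold difference or a log2 change of 0.74 (SE 0.12). This is under the 2-fold minimum used here for calling a gene. With 12-HETE it was 104 ± 19.4 normalized CPM, against 198 ± 5.42 with vehicle, a log2 change of -0.93 (SE 0.13). Both 12-HETE libraries were below the other 6 and both ADAR1 p150 libraries above them.

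**Figure D1:**
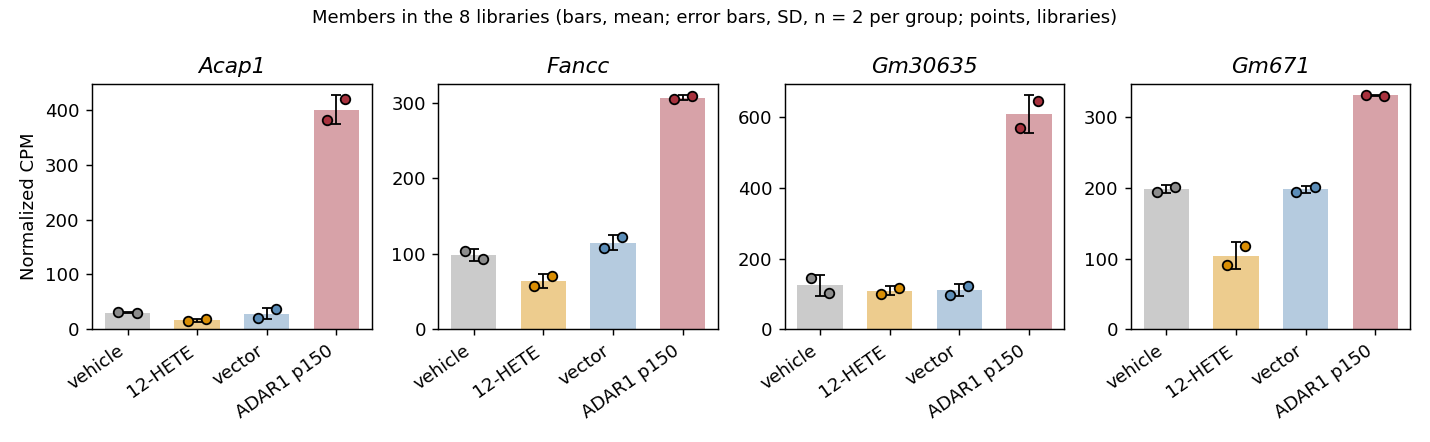
Normalized CPM (vertical axis, linear from 0) of each member in the vehicle, 12-HETE, vector and ADAR1 p150 groups, with bars for the mean, error bars for the SD over 2 libraries and points for the libraries. Both ADAR1 p150 libraries lie above the other 6 for all 4 genes, and for Acap1, Fancc and Gm671 the 12-HETE libraries are the lowest. The genes were chosen on these values.

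The 4 genes thus shared a high level with ADAR1 p150 but not a common level with 12-HETE. There Acap1, Fancc and Gm671 were below the vehicle range, and Gm30635 overlapped it. How many of all genes tested lie below that range was not counted. The members were also chosen as not higher with 12-HETE, so this is a description only. The control libraries of the 2 experiments overlapped or lay close together, although they also entered the choice of the genes. From vehicle to vector the log2 change was -0.08 for Acap1 (SE 0.25), 0.22 for Fancc (SE 0.15), -0.16 for Gm30635 (SE 0.16) and 0.00 for Gm671 (SE 0.12). Over all genes tested, 8.11% were called higher with ADAR1 p150, where called means at least a 2-fold change and an adjusted p under 0.05. Every adjusted p here is from the quasi-likelihood test of edgeR, adjusted over all genes tested by the method of Benjamini and Hochberg. A further 4.69% were called lower. With 12-HETE, 6.12% were called higher and 8.25% lower. Genes called higher with ADAR1 p150 and not called in either direction with 12-HETE numbered 397, or 5.75% of those tested, and included 3 of the 4 members. By log2 change with ADAR1 p150, Acap1 ranked 3 of these 397, Gm30635 ranked 19 and Fancc ranked 166. Gm671 was not among them because of the 2-fold minimum. Since the members were selected on this pattern, nothing is read from these counts.

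**Figure D2:**
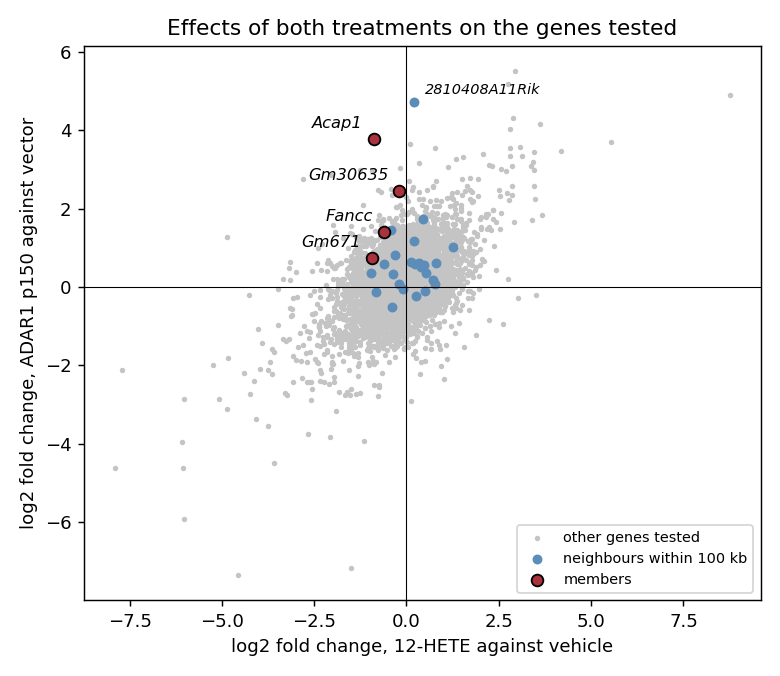
Log2 fold change with ADAR1 p150 against vector (vertical axis) plotted against that with 12-HETE against vehicle (horizontal axis) for the 6901 genes tested, with the 4 members in red and their 24 tested neighbours in blue. Acap1 is at 3.79 and -0.89, and all 4 members lie above 0 on the vertical axis and below 0 on the horizontal axis.

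The genes around the members were not used to choose them, and were tested to see whether they differed as the members did. Within 100 kb of the 4 members, or overlapping them, the table held 55 other genes, of which 24 passed the minimum. Of these 24, 5 were called higher with ADAR1 p150 (20.8%, against 8.11% of all genes tested) and 0 were called lower (against 4.69%). With 12-HETE, 1 of the 24 was called higher (against 6.12%) and 0 lower (against 8.25%). The 5 genes higher with ADAR1 p150 were 2810408A11Rik, Gm16907, Gm51529, Sorbs2os and Krt87. Of these, 2810408A11Rik reached the minimum only through its ADAR1 p150 counts, so it could be called only higher. All 5 are on the minus strand, as the members are, so that 5 of 14 tested neighbours on the members' strand and 0 of 10 on the other strand were called. This split by strand was chosen after the values were seen. The median log2 change with ADAR1 p150 was 0.58 on the members' strand and 0.34 on the other, against 0.07 over all genes tested.

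Acap1 had the neighbour with the largest response. 2810408A11Rik, a protein-coding gene on the same strand, ends 1.78 kb before the start of Acap1. It had vehicle counts of 3 and 10, 12-HETE counts of 11 and 6, vector counts of 2 and 5, and ADAR1 p150 counts of 119 and 115. The gene reached the minimum mean count only through the ADAR1 p150 libraries, so a call of lower was not open to it. With at least 10 counts in every library it was not tested. The log2 change with ADAR1 p150 was 4.73 (SE 0.37, adjusted p = 3.77e-12 by edgeR), and it differed from that with 12-HETE by 4.53 (adjusted p = 5.88e-05 by edgeR). Without vehicle replicate 5 this difference was 3.48 and missed the threshold (adjusted p = 0.0512). By log2 change it ranked 1 of the 397 genes above, followed by Adar and Acap1. Gene 2810408A11Rik and Acap1 are tandem genes in the same orientation, and whether the counts of both come from a single transcript was not tested.

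The other 12 tested neighbours of Acap1 were not called with ADAR1 p150. Neurl4, on the plus strand 6.16 kb from Acap1, had a log2 change of 0.08 (adjusted p = 0.906 by edgeR). Tnk1, a kinase gene on the minus strand, had one of 0.07 (adjusted p = 0.669 by edgeR). G630025P09Rik, on the plus strand 75.5 kb away, passed at an adjusted p of 6.48e-05 by edgeR but at a log2 change of only 0.65, and Zbtb4 at 97.5 kb passed at 0.57 (adjusted p = 0.0449). Gps2, a subunit of the NCoR corepressor complex, had vector counts of 3500 and 3541 and ADAR1 p150 counts of 4953 and 4777, a log2 change of 0.17 (adjusted p = 0.168 by edgeR). The remaining 7, Chrnb1, Tmem102, Eif5a, Elp5, Ctdnep1, Gm51904 and Gabarap, had log2 changes between -0.52 and 0.58 and did not pass. The only gene that overlaps Acap1 in the table is the microRNA gene Mir6924, which had 1 count in each of 2 libraries and 0 in the others.

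At Fancc, the neighbour on the far side of its 3′ end changed with it. Gm16907, a long non-coding RNA gene on the minus strand 4.19 kb from Fancc, had vehicle counts of 161 and 138, 12-HETE counts of 192 and 203, vector counts of 178 and 183, and ADAR1 p150 counts of 504 and 491. It rose by a log2 change of 1.17 (SE 0.12, adjusted p = 1.56e-09 by edgeR). The difference from the 12-HETE effect was 0.96 (adjusted p = 0.000233 by edgeR), just under 2-fold. In GENCODE M21 the gene Fancc extends further, from 63285043 to 63497278, and Gm16907 lies within it. Aopep, an aminopeptidase gene on the plus strand that overlaps Fancc over 24763 bases, had vector counts of 39 and 48 and ADAR1 p150 counts of 55 and 48, a log2 change of -0.05 (adjusted p = 0.909 by edgeR). Ptch1, the Hedgehog receptor gene on the minus strand 11 kb from Fancc, had few counts and did not pass (log2 change 0.62, adjusted p = 0.280).

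Between Gm16907 and Fancc lies a cluster of microRNA genes on both strands. Mir24-1 on the plus strand and Mir3074-1 on the minus strand are written over the same bases, so that their hairpins below, from RefSeq GRCm38.p6, are shown together. Capitals mark the 68 bases of Mir24-1 and the stretch of Mir3074-1 that is its reverse complement. Mir24-1 lies at chr13:63301208-63301275 and Mir3074-1 at chr13:63301199-63301283.
Mir24-1: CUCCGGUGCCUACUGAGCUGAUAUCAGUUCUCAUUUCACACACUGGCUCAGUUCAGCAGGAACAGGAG
Mir3074-1: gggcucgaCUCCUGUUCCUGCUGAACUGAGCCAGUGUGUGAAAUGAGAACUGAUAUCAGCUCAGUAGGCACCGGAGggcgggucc

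Mir24-1 and its plus-strand companions Mir23b and Mir27b had 0 counts in all 8 libraries, where 3 counts correspond to between 1.95 and 2.72 counts per 1000000. Mir3074-1 had vehicle counts of 2 and 4, 12-HETE counts of 4 and 3, vector counts of 7 and 6, and ADAR1 p150 counts of 19 and 19. The counts under Mir3074-1 were highest in the ADAR1 p150 libraries. Its 85 bases extend past those of Mir24-1 at both ends, and which of them the reads covered is not given by the counts. Mir3074-1 did not reach the minimum and was not tested, and it was singled out after its values were seen. Floors and intervals of this kind cover counting error only.

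Gm30635 lies among minus-strand genes inside Sorbs2. Of the 3 others that were tested, 2 were called higher with ADAR1 p150 too (against 8.11% of all genes tested). With so few genes, this count is not set apart from that share. Gm51529, 12.9 kb from Gm30635, had vector counts of 33 and 31 and ADAR1 p150 counts of 107 and 110, a log2 change of 1.47 (SE 0.22, adjusted p = 2.33e-06 by edgeR). Sorbs2os, the gene on the opposite strand of Sorbs2 and 44.4 kb from Gm30635, had vehicle counts of 170 and 136, 12-HETE counts of 253 and 223, vector counts of 151 and 145, and ADAR1 p150 counts of 587 and 620. It rose by 1.74 (SE 0.12, adjusted p = 3.66e-13 by edgeR). With 12-HETE it also passed the p threshold, but at a log2 change of 0.44 (adjusted p = 0.0109). The difference between the effects passed for both genes, at 1.90 for Gm51529 and 1.29 for Sorbs2os (adjusted p = 0.000142 and 5.42e-06 by edgeR). Gm16351, 49.7 kb away and low in counts, did not pass with ADAR1 p150 (log2 change 0.59, adjusted p = 0.242).

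Sorbs2 itself, which encodes an adaptor protein of the actin cytoskeleton, had vehicle counts of 29 and 40, 12-HETE counts of 40 and 24, vector counts of 27 and 23, and ADAR1 p150 counts of 53 and 55. Its log2 change with ADAR1 p150 was 0.82 (SE 0.27, adjusted p = 0.0235 by edgeR), which is under 2-fold, and the difference from 12-HETE was 1.12 (adjusted p = 0.0469 by edgeR). The call for this difference was lost without any 1 of 6 libraries, the exceptions being vehicle replicate 4 and 12-HETE replicate 4, with adjusted p from 0.0573 without ADAR1 p150 replicate 1 to 0.221 without 12-HETE replicate 5. It was also lost with DESeq2 (adjusted p = 0.372), with no minimum count (adjusted p = 0.167), with the replicate number as a block (adjusted p = 0.0847) and with RLE factors (adjusted p = 0.0520).

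At Gm671 the neighbours had unlike patterns. Krt87, a keratin gene on the minus strand 19.3 kb away, had vehicle counts of 52 and 47, 12-HETE counts of 127 and 144, vector counts of 46 and 34, and ADAR1 p150 counts of 102 and 96. It rose with ADAR1 p150 by 1.01 (SE 0.21, adjusted p = 0.000317 by edgeR) and with 12-HETE by 1.26 (SE 0.19, adjusted p = 2.63e-06), and the effects were not shown to differ (adjusted p = 0.629). Its change with ADAR1 p150 is at the 2-fold minimum, and was 0.77 without vector replicate 2 and 0.95 without vehicle replicate 5. It was also under 2-fold with DESeq2 (0.95, adjusted p = 0.0169), RLE factors (0.95), no minimum count (0.90), only the 4 libraries compared (0.96) and without the feature AY036118 (0.96). In each of these cases 4 neighbours were called with ADAR1 p150, all on the members' strand. Krt80, a keratin gene on the minus strand 12.4 kb from the other end, differed in the directions of Gm671. Its log2 change was 0.35 with ADAR1 p150 (adjusted p = 0.0430) and -0.97 with 12-HETE (adjusted p = 1.61e-06 by edgeR), each under 2-fold, and the effects differed by 1.32 (adjusted p = 6.47e-06). Gm35853, which overlaps Gm671 on the plus strand, had vector counts of 918 and 1013 and ADAR1 p150 counts of 1723 and 1879, a log2 change of 0.61 (adjusted p = 9.94e-06 by edgeR). With 12-HETE it was also higher, by 0.35 (adjusted p = 0.00751), where Gm671 was lower. Krt7 did not pass in either comparison, at 0.36 and 0.53 (adjusted p = 0.355 and 0.0841).

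**Figure D3:**
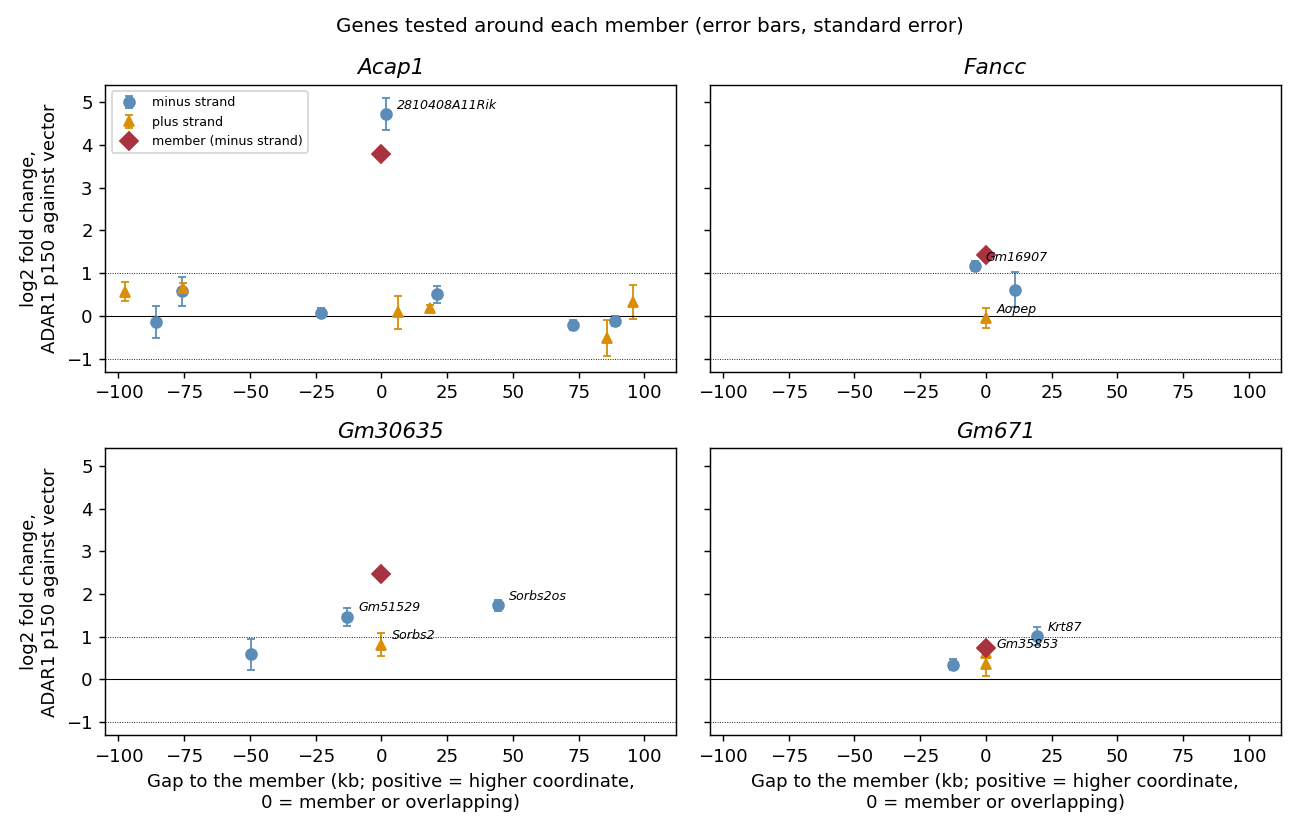
Log2 fold change with ADAR1 p150 against vector (vertical axis, error bars for the SE) of the genes tested within 100 kb of each member, by their gap to it in kb (horizontal axis), with circles for minus-strand genes, triangles for plus-strand genes and a diamond for the member. The neighbours above the dotted line at 1 are all circles, and 2810408A11Rik beside Acap1 is the highest at 4.73.

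Between the effects of the 2 treatments, 5 of the 24 neighbours differed at an adjusted p under 0.05 and 2-fold, all towards a higher value with ADAR1 p150 (against 6.14% of all genes tested in that direction and 2.19% in the other). These were 2810408A11Rik, Sorbs2, Gm51529, Sorbs2os and Krt80. Of these, 2810408A11Rik reached the minimum only through its ADAR1 p150 counts, so a lower value was not open to it. With at least 10 counts in every library it was not tested, and Gm16907 was called instead (1.01, adjusted p = 7.14e-05 by edgeR). The call of Sorbs2 was lost in the cases given above, among them with DESeq2 (adjusted p = 0.372). Vector and vehicle differed at 0 of the 24 neighbours by edgeR and at 0 by DESeq2, with 4 at an unadjusted p under 0.05 by edgeR and 2 by DESeq2. Over all genes tested, 0.0145% were called higher and 0.029% lower in vector than in vehicle.

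Other genes of the Fanconi anaemia pathway were read against the shares over all genes tested, 8.11% called higher and 4.69% lower with ADAR1 p150. Of 12 further genes of the core complex, 5 passed the minimum, 1 was called higher with ADAR1 p150 and 0 lower, too few to set apart from those shares, and the median log2 change was 0.04, against 0.07 over all genes tested. The gene called was Cenpx, a histone-fold subunit that binds DNA with the FANCM protein. Cenpx reached the minimum only through the treated libraries, so a call of lower was not open to it. With at least 10 counts in every library it was not tested. It had vehicle counts of 8 and 6, 12-HETE counts of 87 and 91, vector counts of 5 and 13, and ADAR1 p150 counts of 77 and 57, so it was higher with both treatments (log2 change 2.59 and adjusted p = 1.14e-07 with ADAR1 p150, 3.46 and 1.53e-10 with 12-HETE, edgeR). Fancl, the ubiquitin ligase subunit, was lower with ADAR1 p150 by less than 2-fold (log2 change -0.68, adjusted p = 0.0108), and so was Fanca, a scaffold subunit (-0.33, adjusted p = 0.0264).

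Of 17 genes that act with or after the core complex, 7 were tested, 0 were called higher and 1 lower with ADAR1 p150 (against 8.11% and 4.69% of all genes tested), with a median of -0.36. Fan1, a nuclease that cuts at crosslinks, fell by 1.65 on the log2 scale with ADAR1 p150 (adjusted p = 0.0119 by edgeR) and by 1.67 with 12-HETE (adjusted p = 0.0110). By DESeq2 Fan1 was called with neither treatment (adjusted p = 0.130 with ADAR1 p150 and 0.115 with 12-HETE). It had only vector counts of 11 and 23 and ADAR1 p150 counts of 3 and 10, and its call was lost without vector replicate 2 (adjusted p = 0.274) or ADAR1 p150 replicate 1 (adjusted p = 0.202). With 12-HETE its call was lost without vehicle replicate 4 (adjusted p = 0.0638) or 12-HETE replicate 5 (adjusted p = 0.0901). Fanci, a substrate of the complex, had -0.42 with ADAR1 p150 (adjusted p = 0.00444 by edgeR). Brca2, a gene of homologous recombination, had -0.36 (adjusted p = 0.638). Of 5 reported binding partners of the FANCC protein, 3 were tested and 0 were called with ADAR1 p150, a number too small to read against the same shares. Gstp1, a glutathione transferase, had -0.54 (adjusted p = 0.373) and Cdk1, the mitotic kinase, 0.28 (adjusted p = 0.800 by edgeR).

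Of 22 other Arf GTPase-activating proteins, the relatives of Acap1, 7 were tested and 0 were called with ADAR1 p150 (against 8.11% higher and 4.69% lower of all genes tested), with a median log2 change of -0.15. Acap2 and Acap3, the closest relatives, did not pass the minimum. Git1, a scaffold for focal adhesions, had -0.65 (adjusted p = 0.175), Arap1 had -0.50 (adjusted p = 0.361) and Asap2 had 0.27 (adjusted p = 0.528 by edgeR). With 12-HETE, Arap1 fell by 1.76 (adjusted p = 0.00109 by edgeR). Of 21 Arf GTPases and exchange factors, which switch Arf proteins on, 9 were tested and 0 were called with ADAR1 p150 or with 12-HETE (6.12% higher and 8.25% lower of all genes tested with the latter). With so few genes, a count of 0 is not set apart from these shares. The medians were 0.01 and 0.07. Arf6, the substrate of the ACAP1 protein, had -0.77 with ADAR1 p150 (adjusted p = 0.0467) and -0.83 with 12-HETE (adjusted p = 0.0185 by edgeR), both under 2-fold. Arf3 had 0.97 with ADAR1 p150 (adjusted p = 0.0310), or 1.45 without ADAR1 p150 replicate 2 (adjusted p = 0.00126), and Psd, an exchange factor for Arf6, 0.49 (adjusted p = 0.00435 by edgeR).

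Among 3 cargo proteins that ACAP1 is known to help recycle, Tfrc, the transferrin receptor, and Itgb1, an integrin, were tested. Tfrc was called higher with both treatments, with vehicle counts of 5 and 3, 12-HETE counts of 37 and 27, vector counts of 2 and 1, and ADAR1 p150 counts of 12 and 6 (log2 change 2.21 and adjusted p = 0.0258 with ADAR1 p150, 2.77 and 1.53e-05 with 12-HETE, edgeR). The call of Tfrc with ADAR1 p150 was lost without vector replicate 1 (adjusted p = 0.0599), vector replicate 2 (adjusted p = 0.182) or ADAR1 p150 replicate 1 (adjusted p = 0.208), and without either 12-HETE library it fell below the minimum count. That call was also lost with DESeq2 (adjusted p = 0.190), and in edgeR with no minimum count (0.0769) and with only the 4 libraries compared (0.0674). Tfrc reached the minimum only through the treated libraries, so a call of lower was not open to it. Itgb1 had 0.32 with ADAR1 p150 (adjusted p = 0.146). No gene of the 6 lists was called for the difference between the effects, with 3 at an unadjusted p under 0.05 by edgeR, and 0 called by DESeq2. Vector and vehicle differed at 0 of the 33 tested list genes by edgeR and at 0 by DESeq2, with 5 and 3 at an unadjusted p under 0.05.

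**Figure D4:**
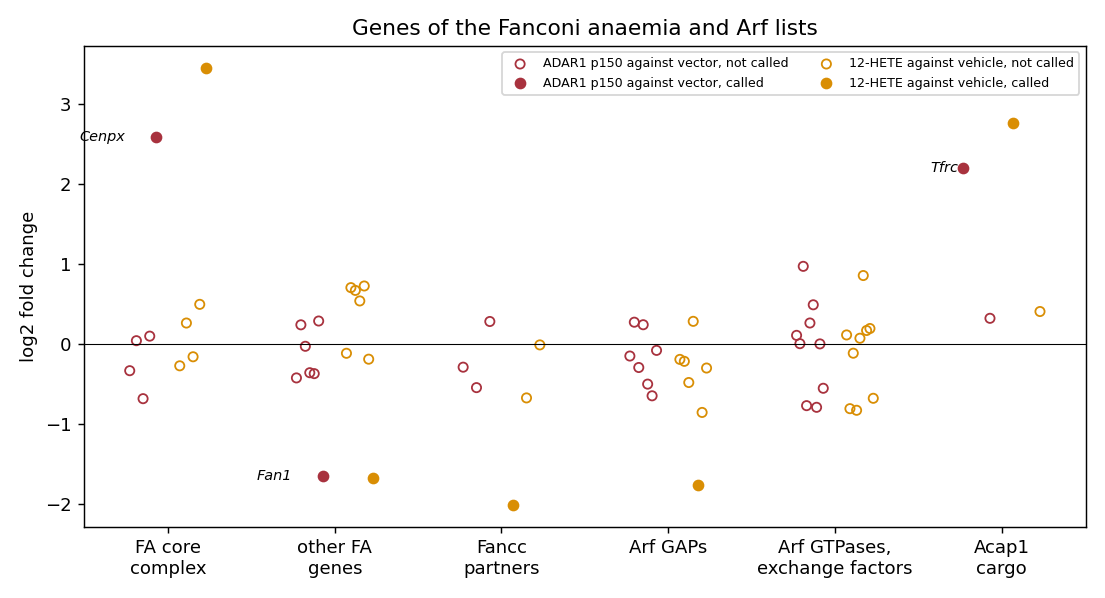
Log2 fold changes (vertical axis) of the tested genes of the 6 lists, in red for ADAR1 p150 against vector and in orange for 12-HETE against vehicle, with filled points for genes called. Cenpx, Fan1 and Tfrc are the genes called with ADAR1 p150 by edgeR, and each is also called in the same direction with 12-HETE. By DESeq2, Fan1 was called with neither treatment and Tfrc was not called with ADAR1 p150.

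Across the 8 libraries, the log2 levels of the 4 members had Pearson correlations with each other from 0.78 for Gm30635 and Gm671 to 0.98 for Acap1 and Gm30635. These describe a pattern for which the genes were chosen, and the 8 points share the difference in depth between groups. The genes elsewhere in the table with the pattern most like Acap1 were Gm40302 (r = 0.99), Gm46093 (0.99) and Cdk13, a kinase of transcription elongation (0.99). Fancc was most like Kcnj13, a potassium channel gene (0.99), Cdk13 (0.99) and Gm51770 (0.99). Gm30635 was most like Gm52296 (1.00), Ccdc39, a gene of cilia (0.99), and Gm40302 (0.99). Gm671 was most like Gm39584, Gm30541 and Gm51710 (each 0.99), of which Gm30541 had 16 and 25 counts with 12-HETE and 343 and 357 with ADAR1 p150. None of these genes lies on the chromosome of its member except Cdk13, which is on chromosome 13 as Fancc is.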

How the data were processed

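The study deposited 1 table of raw read counts per gene (unit: counts, whole numbers, not normalized), made by the authors from RNA-seq of EO771 cells. The labels name an RNeasy kit and a SMARTER mRNA-Seq kit, whereas the methods describe Trizol and a directional library kit. These descriptions do not settle the strand of the counts. Symbols were matched to RefSeq GRCm38.p6 for positions, strands and sequences.

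Counts were normalized by TMM and fitted over all 8 libraries with 1 mean per group in edgeR 4.0.16 (quasi-likelihood test, R 4.3.3), for the 6901 of 49997 genes whose mean over the libraries reached 10 counts. P-values were adjusted by Benjamini-Hochberg over all genes tested, and a gene was called at an adjusted p under 0.05 and at least a 2-fold change. The difference between the 2 effects was a contrast of the same fit. Each standard error was the size of the log2 fold change divided by the square root of the test's F statistic. This holds for the members too, for which no p is given. DESeq2 1.42.0 was an alternative. The procedure was tested on simulated data.

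The 4 members, the gene lists and the motifs were chosen with earlier results of these data known. The genes named are the members, Adar, tested neighbours within 100 kb and overlapping genes, the called genes of each list (or the 3 with the lowest p where fewer were called), and the 3 genes most correlated with each member (log2 CPM with a prior count of 2). The microRNA genes beside Fancc, Acap2, Acap3, the list genes whose call changed without a library and the 3 genes beyond 100 kb were singled out after their values were seen. Values of some listed genes are not reported here. Total counts ranged from 1101767 to 1537037 per library, and 1 feature, AY036118, held from 44.4% to 50.3% of them. The alternatives were RLE factors, leaving out AY036118, other count minimums, only the 4 libraries compared, the replicate number as a block, DESeq2, the adjusted p alone, and leaving out each library.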

Additional observations from a re-analysis of the deposited data

How the results depend on the processing

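Both ADAR1 p150 libraries were above the other 6 for all 4 members. The log2 fold changes with ADAR1 p150 of the members, Adar and the 5 called neighbours kept their sign wherever the gene was tested. With at least 10 counts in every library, Adar and 2810408A11Rik were not tested. Small values changed sign, namely Gm30635 with 12-HETE (0.073 without vehicle replicate 4) and, from vehicle to vector, Acap1 (0.25 without vector replicate 1, 0.0058 with no minimum), Gm30635 (0.10 without vehicle replicate 4) and Gm671 (above 0 under 7 alternatives). Depth limits the low genes, since 3 counts correspond to between 1.95 and 2.72 counts per 1000000. The cause of the changes below was not tested.

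With at least 10 counts in every library, 429 genes were called with ADAR1 p150 (884 before), 481 with 12-HETE (991), 0 between vector and vehicle (3) and 227 with ADAR1 p150 and not 12-HETE (397), and the list genes called were 1 (3) and 0 (5), since fewer genes were tested. DESeq2 called 440, 590, 0, 247 for the difference (575) and 179 in the same order, and 1 list gene with ADAR1 p150. By the adjusted p alone the counts were 1766, 2021, 8 and 1033, with 10, 6 and 10 neighbours (5, 1 and 5 for ADAR1 p150, 12-HETE and the difference) and 9 and 9 list genes. Vector against vehicle gave 6 with RLE factors, 8 without AY036118, 11 with no minimum and 1 with only the 4 libraries, beside 795 genes at an unadjusted p under 0.05 by edgeR and 232 by DESeq2. Neighbours called with 12-HETE were 2 without AY036118, 2 with no minimum and 2 within 250 kb. For Fancc the log2 fold change with ADAR1 p150 was 1.31 with no minimum. For Gm671 it was 0.68 with RLE factors, 0.69 without AY036118, 0.77 with 10 counts in every library, 0.64 with no minimum, 0.69 with only the 4 libraries and 0.68 with DESeq2. From vehicle to vector Gm671 had 0.057 with RLE factors, -0.044 with 10 counts in every library, 0.086 with no minimum and 0.057 with DESeq2. With Spearman correlations, the 3 genes most like each member shared 0, 1, 1 and 0 with those named for Acap1, Fancc, Gm30635 and Gm671.

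Leaving out each library in turn gave from 702 to 882 calls with ADAR1 p150, from 842 to 1011 with 12-HETE, from 0 to 20 between vector and vehicle, from 457 to 551 for the difference and from 317 to 421 with ADAR1 p150 and not 12-HETE. Neighbours called were from 4 to 5, from 1 to 3 and from 4 to 6, and list genes from 1 to 4, from 4 to 6 and from 0 to 1, for ADAR1 p150, 12-HETE and the difference. Calls gained without 1 library were Arf6 (without ADAR1 p150 replicate 1), Arf3 (without ADAR1 p150 replicate 2) and Git1 (without vector replicate 1) with ADAR1 p150, and Arf2, Gstp1 and Krt80 (without 12-HETE replicate 4 or vehicle replicate 4), Arf6 (without 12-HETE replicate 5), and Ptch1 and Chrnb1 (without vehicle replicate 5) with 12-HETE. For the difference they were Gm16907 (without 12-HETE replicate 5, ADAR1 p150 replicate 1 or vehicle replicate 5), Arf3 (without ADAR1 p150 replicate 2), Arap1 (without vector replicate 2) and Gm16351 (without vehicle replicate 4). Log2 fold changes with ADAR1 p150 ranged from 3.45 to 4.23 for Acap1, from 1.33 without vector replicate 1 to 1.502 without vector replicate 2 for Fancc and from 0.68 to 0.76 for Gm671, and those of Adar from 4.04 to 5.92. With 12-HETE they ranged from -1.06 to -0.71 for Acap1, from -0.49 to 0.073 for Gm30635 and from -1.12 to -0.73 for Gm671. From vehicle to vector they ranged from -0.52 to 0.25 for Acap1 and from -0.029 to 0.050 for Gm671.

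The labels number the replicates alike in both groups of each experiment. Deviations of same-numbered libraries had correlations of -0.08 and -0.11. With 2 libraries per group, these cannot settle whether same-numbered libraries were paired. With the replicate number as a block, 813, 942, 3 and 506 genes were called, 5, 1 and 4 neighbours, and Gm671 had 0.089 from vehicle to vector. With the pairing crossed in the ADAR1 p150 experiment, an alternative chosen after seeing the data, 921 genes were called with ADAR1 p150 and 633 for the difference.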

Other observations

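Long non-coding RNA genes were 139 of the 397 genes called higher with ADAR1 p150 and not called with 12-HETE, against 1601 of all 6901 genes tested (23.2%). Protein-coding genes made up 51.9% against 71.1%. Of the 363 with a known strand, 50.4% were on the minus strand, against 50.1% of the 6569 tested genes with one. These shares were not tested.

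Within 250 kb of the members, 36 genes were tested, and 7 were called higher with ADAR1 p150 and 0 lower by edgeR (against 8.11% and 4.69% of all genes tested). The 7 include 2810408A11Rik, to which a call of lower was not open. Beyond the 5 within 100 kb these were Tnfsf13os, 190 kb from Acap1, with vector counts of 16 and 16 and ADAR1 p150 counts of 41 and 54, and Gm46422, 207 kb from Fancc, with 21 and 19 against 59 and 54. A330009N23Rik, 157 kb from Gm671, was called higher with 12-HETE, with vehicle counts of 15 and 19 and 12-HETE counts of 32 and 48.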
